A study of Mus musculus with 2 samples.

Results

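Ear2/Retnla cells are macrophage-gated cells of dystrophic mouse muscle that carry transcripts of at least 3 of the 6 genes Ear2, Retnla, Dcstamp, Mmp12, Clec4b1 and Cd226. They were chosen from the RNA readout itself. A cell entered the macrophage gate when it had at least 500 detected genes, UMIs (unique molecular identifiers, each counting 1 captured transcript) of at least 2 of the 5 macrophage genes Csf1r, Adgre1, Fcgr1, C3ar1 and Cd68, no UMI of the 4 lineage genes Pdgfra, Cdh5, Cd3e and Cd79a, and UMIs of fewer than 3 of the 6 cell cycle genes Mki67, Top2a, Birc5, Cdk1, Ccna2 and Ube2c. Cells with at least 20 Spp1 and at least 3 Gpnmb UMIs (Spp1/Gpnmb cells below) and cells with at least 3 of Fcna, Cd163, Ccl24, Cbr2, Lyve1 and F13a1 (Fcna/Cd163 cells below) were set aside as other classes of the gate. The rule found 177 cells among 7664 cells with at least 500 genes, 83 in the Ctrl and 94 in the dKO library.

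The single-cell RNA-seq libraries came from the hind limbs of mdx mice, a dystrophin-deficient strain whose muscle degenerates and repairs over and over. Ctrl mice carried Pax7CreERT2/R26YFP, Yy1+/+ and mdx, and dKO mice carried the same Cre and YFP reporter alleles and mdx with Yy1 f/f, so that tamoxifen removes Yy1, a zinc finger transcription factor, from Pax7-expressing muscle stem cells (MuSCs) and their progeny and not from macrophages. Mice of both groups received tamoxifen by intraperitoneal injection for 5 days at 100 mg/kg at 1.5 months of age, and muscles were taken 1 month later. Live mononuclear cells of 3 mice were pooled into 1 droplet library per genotype. With 1 library per genotype there was no replicate, no test across animals could be made, and genotype and library cannot be told apart. Intervals are exact 95% intervals from the counts (Poisson for a level, binomial for a share or a ratio of 2 levels, Newcombe for a difference of 2 shares), and they cover counting error only, not the spread between cells or mice.

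Macrophages in injured muscle arise from blood monocytes and from tissue-resident cells, clear debris, and release cytokines that act on MuSCs and on fibro-adipogenic progenitors. Retnla encodes a secreted resistin-like protein induced by IL-4 and IL-13 through STAT6 and is widely used as a sign of alternative activation. Ear2 encodes an eosinophil-associated ribonuclease, Dcstamp a membrane protein needed for macrophage fusion, Mmp12 the macrophage elastase, Clec4b1 a C-type lectin receptor, and Cd226 an adhesion receptor. On GRCm38 (GENCODE M21) these protein-coding genes lie at chr14:44102654-44103534 (Ear2, plus strand), chr16:48842551-48844461 (Retnla, plus), chr15:39745930-39760938 (Dcstamp, plus), chr9:7344381-7369499 (Mmp12, plus) and chr6:123049962-123071555 (Clec4b1, plus).

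The stretch upstream of the start of Retnla and of Ear2, the genes that name the cells, and of genes from the interferon response and inflammatory cytokine lists, described below between the libraries, is printed from RefSeq (GRCm38.p6). Each window has 200 bases and ends 50 bases before the start in RefSeq, which can differ from the GENCODE start, so that the Retnla window reaches into the GENCODE gene. Capitals mark matches on either strand to a STAT6-type motif (TTC and GAA with 4 bases of any kind between them) in Retnla and Ear2, to the interferon-stimulated element (GAAA and GAAA with 2 bases between them) in Ifit3 and Isg15, and to a kappa B-type motif (GGGA and TTTCC with 1 base between them) in Cxcl1 and Cxcl2.
Retnla (chr16:48842359-48842558, plus strand): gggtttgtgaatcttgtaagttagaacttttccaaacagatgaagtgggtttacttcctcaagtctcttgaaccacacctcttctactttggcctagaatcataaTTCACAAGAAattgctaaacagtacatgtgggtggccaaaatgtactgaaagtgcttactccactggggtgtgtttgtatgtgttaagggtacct
Ear2 (chr14:44102404-44102603, plus strand): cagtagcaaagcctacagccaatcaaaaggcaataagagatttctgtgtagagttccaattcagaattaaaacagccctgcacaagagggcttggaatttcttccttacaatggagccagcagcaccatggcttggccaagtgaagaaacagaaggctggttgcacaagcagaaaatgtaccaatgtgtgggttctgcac
Ifit3 (chr19:34583279-34583478, plus strand): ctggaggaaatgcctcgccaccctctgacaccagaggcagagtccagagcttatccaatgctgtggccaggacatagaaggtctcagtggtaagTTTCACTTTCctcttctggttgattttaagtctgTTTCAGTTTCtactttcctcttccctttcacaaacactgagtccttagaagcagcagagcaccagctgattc
Isg15 (chr4:156200869-156201068, minus strand): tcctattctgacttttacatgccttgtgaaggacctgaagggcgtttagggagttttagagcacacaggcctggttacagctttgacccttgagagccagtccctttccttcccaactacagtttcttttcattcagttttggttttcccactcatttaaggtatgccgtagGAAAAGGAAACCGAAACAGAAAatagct
Cxcl1 (chr5:90890995-90891194, plus strand): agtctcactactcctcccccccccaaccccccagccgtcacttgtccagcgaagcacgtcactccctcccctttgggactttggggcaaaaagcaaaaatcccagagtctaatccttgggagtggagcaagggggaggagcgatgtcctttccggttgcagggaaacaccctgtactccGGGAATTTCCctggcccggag
Cxcl2 (chr5:90903649-90903848, plus strand): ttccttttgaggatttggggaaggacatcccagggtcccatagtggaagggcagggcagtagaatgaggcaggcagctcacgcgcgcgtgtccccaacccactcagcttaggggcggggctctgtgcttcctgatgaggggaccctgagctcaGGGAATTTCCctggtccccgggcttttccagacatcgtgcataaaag

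Retnla held 1 match to the STAT6-type motif, which began 145 bases before the start, and Ear2 held none. In windows of 300 bases (250 before to 50 after the start), 6.95% of all 32851 RefSeq promoters held this motif. Ifit3 held 2 matches to the interferon-stimulated element. Isg15 held 3, which overlapped each other. Of 15 interferon response genes with a promoter, 8 held this element (Bst2, Cxcl10, Gbp2, Ifit1, Ifit3, Isg15, Rsad2 and Stat2), against 3.99% of all genes. None of 14 inflammatory cytokine genes with a promoter held it, while 5 of these 14 held the kappa B-type motif (Cxcl1, Cxcl2, Cxcl3, Il6 and Nfkbia), against 0.466% of all genes. These letter matches describe the windows and are not evidence of binding in these cells.

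The Ctrl library held 4527 barcodes with 45556596 UMIs and the dKO library 3483 barcodes with 33815155 UMIs. After 192 and 154 barcodes with fewer than 500 genes were left out, 1328 Ctrl and 1055 dKO cells passed the macrophage gate. In cells with at least 1 Pax7 UMI, Yy1 was at 187 CPM in Ctrl (323 UMIs in 81 cells) and at 24.0 CPM in dKO (11 UMIs in 19 cells), where CPM is a gene's UMIs scaled to 1000000 UMIs of the pooled cells. The Ear2/Retnla cells held 1185763 UMIs in Ctrl and 1247059 in dKO, with medians of 12847 and 12656 per cell. The other gated cells had medians of 8201 and 7186, so the members were deeper than their neighbours in the gate. Of all barcodes 7 were shared between the libraries, and 1 Ctrl member had such a barcode.

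The genes of the rule were abundant in a small number of cells. Retnla was at 2238 CPM in Ctrl and 2811 CPM in dKO members, against 144 and 216 CPM in all other gated cells. Mmp12 was at 2223 and 1420 CPM, against 426 and 90.1 CPM. Ear2 was at 292 and 264 CPM, against 12.0 and 5.95 CPM. These values show how the rule divided the gate and are no finding, because the same UMIs chose the cells.

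Dcstamp was at 221 and 302 CPM in Ctrl and dKO members, Clec4b1 at 305 and 260 CPM, and Cd226 at 49.8 and 52.9 CPM. Itgax (the integrin CD11c) and Lyz1 (a lysozyme), which the rule did not name, were at 284 and 214 CPM and at 1047 and 804 CPM. In the other gated cells Itgax was at 72.1 and 25.3 CPM and Lyz1 at 83.7 and 81.6 CPM. Lyz1 and Lyz2 are close copies, so the split of reads between them is uncertain. The other classes were Ly6c2/Chil3 cells, gated cells with at least 3 of the 5 monocyte genes Ly6c2, Chil3, Vcan, Plac8 and Ccr2, the Fcna/Cd163 and Spp1/Gpnmb cells, and a remainder of 646 Ctrl and 474 dKO cells. Among them the Fcna/Cd163 cells held the most Retnla, at 1130 and 1412 CPM, and the members held 1.98 and 1.99 times that level. Mmp12 was at 844 and 277 CPM in Spp1/Gpnmb cells.

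**Figure D1:**
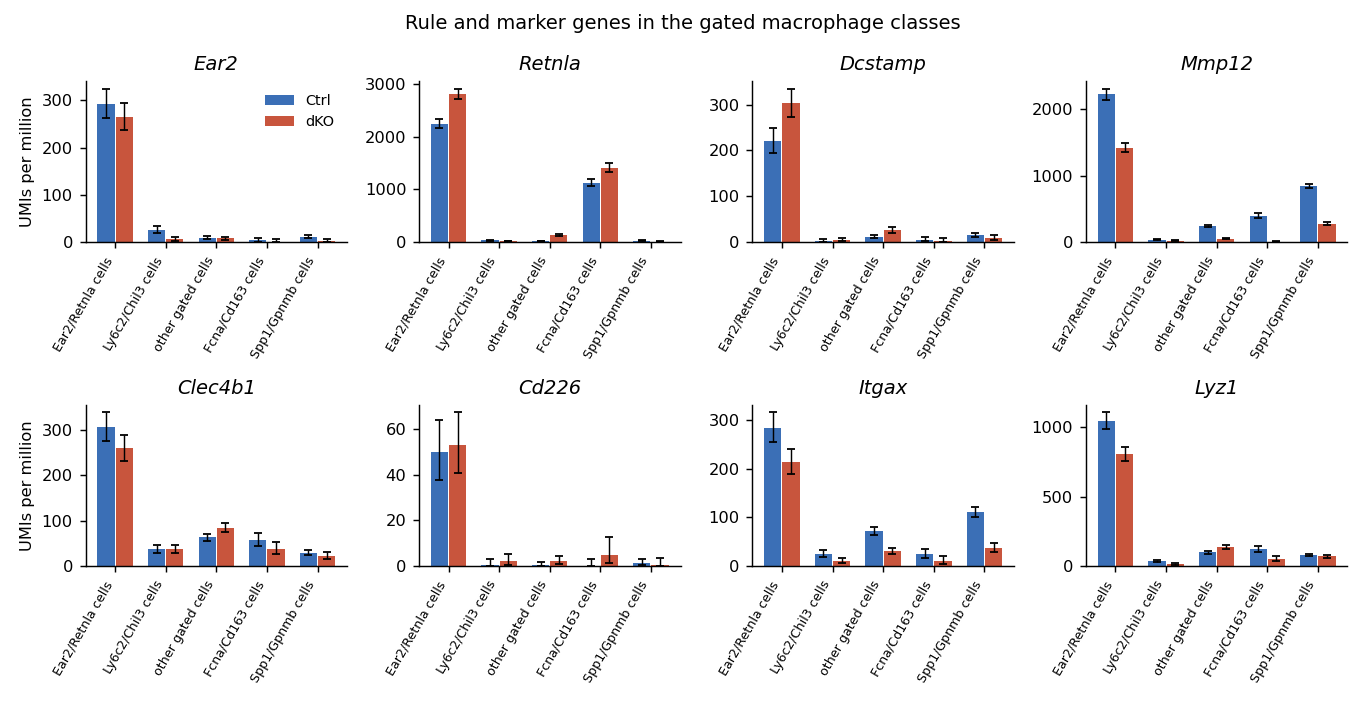
Levels in CPM (linear axis) of the 6 rule genes, Itgax and Lyz1 in the Ear2/Retnla cells and 4 other classes of the macrophage gate (in the axis labels, other gated cells are the remainder in no named class), with Ctrl and dKO as separate bars and exact 95% counting intervals. Retnla stood at 2238 and 2811 CPM in the Ear2/Retnla cells and at 1130 and 1412 CPM in Fcna/Cd163 cells, and Ear2 at 292 and 264 CPM in the Ear2/Retnla cells and at 26.2 CPM or less elsewhere.

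The name holds for fewer than all of the members, since no single gene was required. UMIs of both Ear2 and Retnla were found in 40 of 83 Ctrl members (48.2%, 37.1 to 59.4) and 43 of 94 dKO members (45.7%, 35.4 to 56.3). Ear2 without Retnla was found in 26 and 23 members, Retnla without Ear2 in 9 and 19, and neither in 8 and 9. Exactly 3 rule genes were found in 27 Ctrl and 37 dKO members, 4 in 29 and 28, 5 in 21 and 23, and all 6 in 6 and 6. When each cell was thinned to 2000 UMIs, both genes were seen in 18 of 83 Ctrl and 13 of 93 dKO members.

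Members just inside the limit, with exactly 3 rule genes, had Retnla at 1638 CPM in Ctrl and 3231 CPM in dKO and Apoe, the lipoprotein that marks many tissue macrophages, at 4295 and 5764 CPM. The cells just outside it, 65 Ctrl and 58 dKO gated cells with exactly 2 rule genes, had Retnla at 101 and 656 CPM and Apoe at 7671 and 10445 CPM. Retnla is a rule gene and differs across the limit by construction. H2-Aa, an MHC class II chain, was at 6796 and 6500 CPM just inside and at 5078 and 7037 CPM just outside.

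Free RNA in the droplets was read from stromal and endothelial cells, taken as cells with a Pdgfra or Cdh5 UMI and none of the 5 macrophage genes (1398 Ctrl and 1133 dKO cells, median depths 9292 and 11240 UMIs). Retnla was found in 28 of 1398 and 31 of 1133 of these cells and in 59.0% and 66.0% of members. Mmp12 was found in 4.15% and 1.32% of them and in 74.7% and 61.7% of members. Ear2 was found in 0.286% of the Ctrl and in 0 of 1133 dKO stromal and endothelial cells, which allows up to 0.265%, and in 79.5% and 70.2% of members. At 2000 UMIs per cell Retnla was found in 44.6% and 52.7% of members, against 0.381% and 0.741%. Retnla, Mmp12 and Ear2 are rule genes, so their shares in members follow from the choice of the cells and are no finding. Only the shares in stromal and endothelial cells bear on free RNA.

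The UMIs of some of these genes were gathered in few members. For Retnla the 10 members with most UMIs held 65.7% of the Ctrl and 65.6% of the dKO total, and the highest cell held 281 and 383 UMIs against medians of 2 and 6.5. For Lyz1 the top 10 members held 83.4% and 68.8%, and for Mmp12 70.6% and 67.1%. Ear2 was more evenly spread, with 38.7% and 44.4% in its top 10 members, a highest cell of 18 and 22 UMIs and medians of 3 and 2. Clec4b1, seen in 72 of 83 and 86 of 94 members, was the most widely detected of the rule genes in both libraries.

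**Figure D2:**
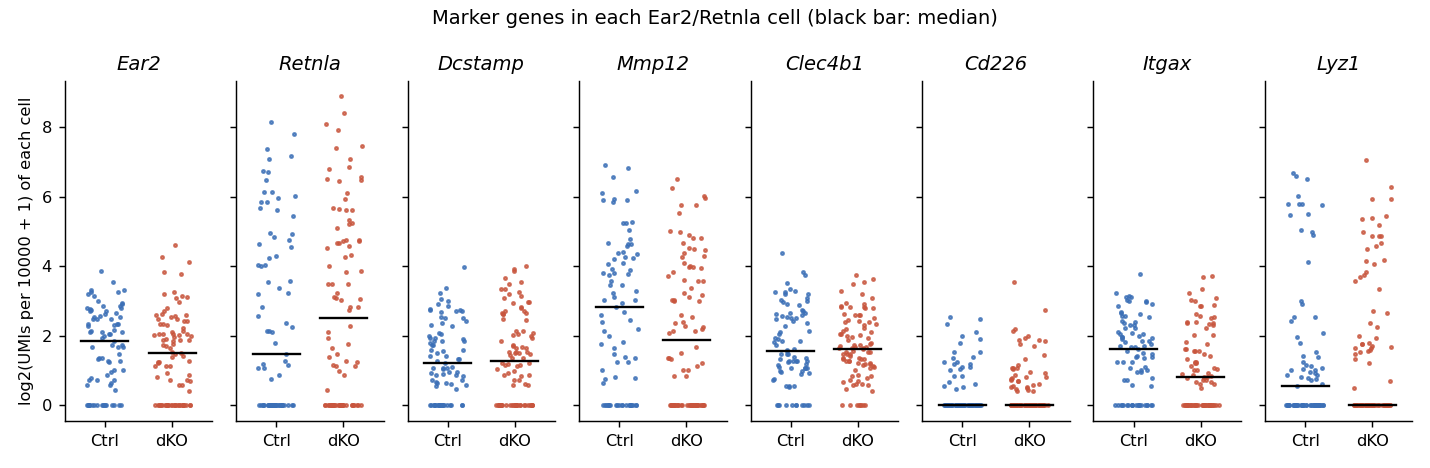
Each point is 1 Ear2/Retnla cell (83 Ctrl, 94 dKO) and its height is log2(UMIs per 10000 + 1) for the gene in the panel title, with a black bar at the median. Cells without a UMI lie at 0, and the Retnla, Mmp12 and Lyz1 panels have long upper tails while Ear2 and Clec4b1 stay low and broad.

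Defining macrophage genes were present in the members, several of them at lower levels than in the rest of the gate. Lyz2, the myeloid lysozyme, was at 4063 and 3602 CPM, Tyrobp, an adaptor of activating receptors, at 2604 and 2428 CPM, and Csf1r, the M-CSF receptor used in the gate, at 400 and 331 CPM. Adgre1 (F4/80) was at 163 and 237 CPM, against 430 and 454 CPM in the other gated cells. Fcgr1 (CD64) was at 53.1 and 66.6 CPM, against 199 and 380 CPM. Mertk, a receptor for dying cells, had 17 and 8 UMIs in all members together.

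Markers of dendritic cells were mixed in the members. Their list of 16 genes was at 315 and 396 CPM, against 371 and 370 CPM in the other gated cells, with 5 genes at 0 in both libraries. Batf3, a transcription factor of dendritic cells, was at 70.8 and 83.4 CPM against 27.5 and 26.6 CPM, and Cd24a, a surface glycoprotein of many cell types, at 108 and 120 CPM against 49.7 and 29.9 CPM. Irf8, a transcription factor of dendritic cells and monocytes, was lower, at 69.2 and 91.4 CPM against 218 and 217 CPM. Flt3, the growth factor receptor of dendritic cells, had no UMI in 83 Ctrl and 94 dKO members, which allows up to 3.61% and 3.19% of cells with a UMI and does not limit cells that express it below detection. Zbtb46, a dendritic cell transcription factor, had 2 and 4 UMIs, and Xcr1, a chemokine receptor of cross-presenting dendritic cells, had 0 and 3 UMIs. Cd209a, a lectin of monocyte-derived and conventional dendritic cells, had 51 and 54 UMIs in 7 and 6 cells. Epx and Prg2, granule proteins of eosinophils, had no UMI in any member, and Siglecf, carried by eosinophils and alveolar macrophages, had 7 and 9. Ear1, Ear6, Ear10 and Ear14 were at 0 in the members of both libraries. Ear2 belongs to a family of close copies, so which copy its UMIs came from is uncertain.

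Of the marker lists for other types, the summed levels in members were 3.37 and 0 CPM for 6 T and NK cell genes (5 and 6 of them at 0), 5.90 and 3.21 CPM for 5 B and plasma cell genes (4 and 3 at 0), and 46.4 and 30.5 CPM for 8 neutrophil genes (3 and 5 at 0). For 7 fibro-adipogenic progenitor genes (1 and 1 at 0) they were 569 and 313 CPM in members and 535 and 775 CPM in the other gated cells. For 8 alveolar macrophage genes (4 and 5 at 0) they were 136 and 137 CPM, against 406 and 373 CPM. Of the 675 Ctrl UMIs of the fibro-adipogenic list, 246 lay in 1 member. The 6 endothelial genes (1 and 1 at 0) were at 367 and 367 CPM in members, above the 271 and 214 CPM in the other gated cells, and Fabp4, a fatty acid binding protein, gave 420 of their 435 Ctrl and 436 of their 458 dKO UMIs. The part of these other-type transcripts in the results was not tested. The dKO members included 1 cell with all 42 UMIs of the erythroid and platelet list.

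The genes that set the members apart most from the other gated cells, by the lower of the 2 libraries' ratios, included Ear2, Dcstamp, Retnla and Lyz1, followed by Rras2, Bcl2a1a, Mmp12, Ltb4r1, Clec4b1, Fgfr1, Unc119, Sdc1, Itgax and Ephx1. Rras2, a small GTPase of the Ras family, was at 74.2 and 95.4 CPM in members and 8.16 and 7.80 CPM in the other gated cells. Ltb4r1, the high-affinity leukotriene B4 receptor, was at 95.3 and 73.0 CPM against 17.9 and 14.1 CPM. Fgfr1, a fibroblast growth factor receptor, was at 73.4 and 109 CPM against 15.1 and 25.5 CPM. Both were also present in other classes of the gate, Ltb4r1 at 56.2 and 37.2 CPM in Ly6c2/Chil3 cells and Fgfr1 at 69.7 and 87.7 CPM in Fcna/Cd163 cells, the latter close to the members. In the Cd209a/Flt3 cells described below, Ltb4r1 was at 73.1 and 29.4 CPM and Fgfr1 at 54.8 and 33.6 CPM. Unc119 was at 54.8 and 143 CPM there (102 and 144 CPM in members) and Bcl2a1a at 82.2 and 42.0 CPM. Sdc1 and Ephx1 had no UMI there. Each of these levels rests on 34 UMIs or fewer. Sdc1 (syndecan-1, CD138) was at 153 and 128 CPM against 30.6 and 32.1 CPM. Bcl2a1a, a survival factor of the BCL2 family, has near-identical copies, so its 91.1 and 119 CPM are uncertain. As every gene of cells chosen by expression depends on that choice, these levels are descriptions.

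Among 3031 genes with at least 100 UMIs in members, 87 (2.87%) were at least 2-fold higher than in the other gated cells in both libraries and 44 (1.45%) at least 2-fold lower. Genes nearly absent from members could not enter this count, so the 2 directions are not set against each other. The MHC class II genes were on the high side, 6 of 9 measured. Cd74, the invariant chain, was at 13361 and 12132 CPM in members, against 4519 and 5522 CPM in the other gated cells. H2-Aa was at 5043 and 5232 CPM, against 1772 and 2378 CPM. H2-DMb1, a chain of the peptide exchange factor H2-DM, was at 643 and 646 CPM, against 193 and 203 CPM.

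Of 6 measured matrix protease and inhibitor genes, 2 were at least 2-fold higher in members in both libraries, against 2.87% of all genes. They were Mmp12 of the rule and Mmp19. Fn1 (fibronectin) was at 1726 and 1184 CPM in members and 529 and 231 CPM in the other gated cells. Mmp19, a matrix metalloproteinase, was at 870 and 723 CPM against 274 and 233 CPM. The CC chemokine Ccl6 was at 2937 and 3424 CPM against 1266 and 1529 CPM. Lpl (lipoprotein lipase) was at 2014 and 2142 CPM against 1275 and 668 CPM, so that only the dKO pair was 2-fold apart. Csf2ra and Csf2rb, the 2 chains of the GM-CSF receptor, were at 341 and 332 CPM and at 394 and 376 CPM, against 180 and 180 CPM and 193 and 207 CPM.

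Apoe was at 1972 and 2438 CPM in members against 16202 and 16941 CPM in the other gated cells. In dKO 1324 of the 3040 Apoe UMIs lay in 1 member. Of 7 measured complement and complement receptor genes, 5 were at least 2-fold lower in members in both libraries, against 1.45% of all genes. Itgax was the 1 at least 2-fold higher, against 2.87% of all genes. C1qa was at 1009 and 1103 CPM against 2737 and 3229 CPM. Ccl8, a CC chemokine of resident macrophages, had 4 and 7 UMIs, against 315 and 832 CPM elsewhere in the gate. Pf4 (platelet factor 4) was at 135 and 103 CPM against 1903 and 1602 CPM, and Ms4a7, a membrane protein of macrophages, at 75.9 and 88.2 CPM against 805 and 992 CPM. Pf4, Ms4a7 and Ccl8 were chosen after their values were seen.

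Compared with Cd209a/Flt3 cells, taken as other cells with UMIs of at least 2 of Cd209a, Flt3 and Zbtb46 (28 Ctrl and 21 dKO), the members held less Cd74 and more Lyz2 and Csf1r. Cd74 was at 23304 and 21634 CPM in those cells, above the members. Flt3 was at 164 and 139 CPM there. Lyz2 was at 481 and 265 CPM there and Csf1r at 70.1 and 46.2 CPM, both below the members. Csf1r is a gene of the macrophage gate, which these other cells did not have to pass, and Flt3 helped to choose them. The levels of Csf1r and Flt3 therefore depend on how the cells were chosen and are no finding.

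Within the members, cells with a Retnla UMI (49 Ctrl, 62 dKO) differed from cells without one (34 and 32), at median depths of 12150 and 14085 UMIs in Ctrl and 12961 and 12254 in dKO. F13a1, the coagulation factor XIII A chain of tissue and monocyte-derived macrophages, was at 142 CPM with and 7.98 CPM without Retnla in Ctrl, and at 126 and 4.77 CPM in dKO. Lyz1 was at 1782 and 43.9 CPM in Ctrl and at 1172 and 78.7 CPM in dKO. Fcrls, an Fc receptor-like gene of macrophages, was 2.78-fold higher with Retnla in Ctrl (2.18 to 3.58) and 3.11-fold in dKO (2.29 to 4.32). Fn1 was 2.48-fold (2.24 to 2.76) and 2.91-fold (2.52 to 3.37) higher, and the tetraspanin Cd81 2.52-fold and 4.07-fold. These genes and those of the next paragraph were chosen after their values were seen, and F13a1 was limited by the rule for Fcna/Cd163 cells.

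Cells without a Retnla UMI held more of a different set. The tetraspanin Cd9 was at 622 CPM without and 316 CPM with Retnla in Ctrl, and at 489 and 288 CPM in dKO. Lgals1 (galectin-1) was at 2111 and 1030 CPM in Ctrl and at 1283 and 1041 CPM in dKO. Dcstamp was at 317 and 151 CPM in Ctrl and at 367 and 269 CPM in dKO. Dcstamp and Mmp12 are genes of the rule, and a member without Retnla had to hold 3 of the other 5, so their levels in this split depend on the rule and are no finding. H2-Aa was at 6360 and 4078 CPM in Ctrl and at 6024 and 4830 CPM in dKO. Mmp12 and Apoe went opposite ways in the libraries. The ratio of cells with to cells without Retnla was 0.787 in Ctrl and 1.62 in dKO for Mmp12, and 0.718 and 3.28 for Apoe. By cells with a UMI, Mmp12 went 1 way, found in 69.4% with and 82.4% without Retnla in Ctrl and in 56.5% and 71.9% in dKO. The dKO Apoe ratio depends in large part on 1 cell. The dKO member with most Apoe UMIs, given above, held more than the 407 of all dKO cells without Retnla, so it lay among the cells with Retnla (2633 UMIs).

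**Figure D3:**
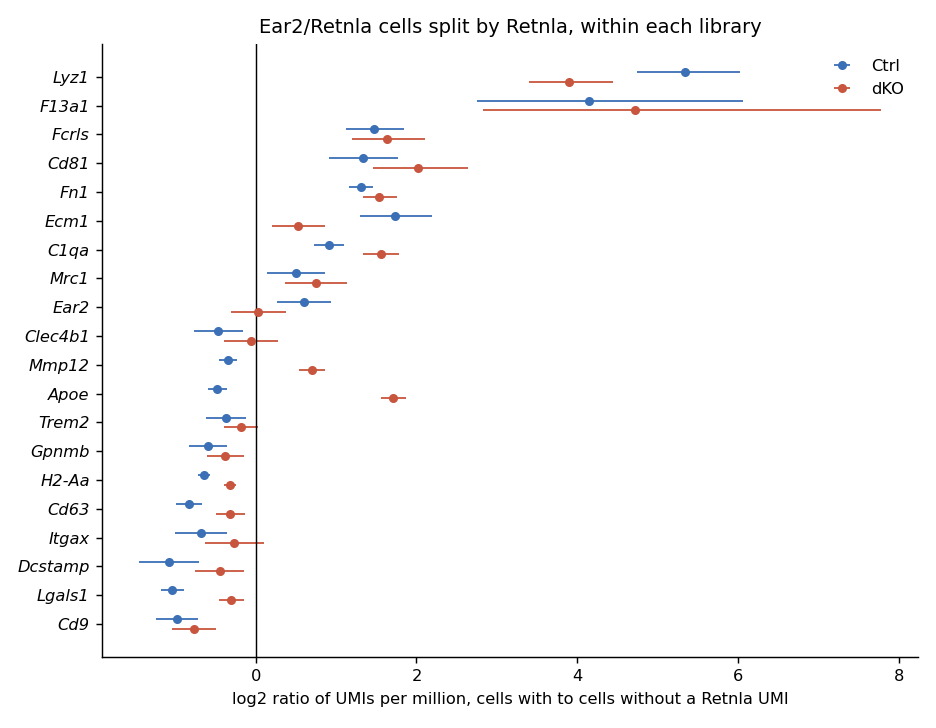
For 20 genes, points give the log2 ratio of CPM in Ear2/Retnla cells with a Retnla UMI to those without one, in Ctrl (49 and 34 cells) and dKO (62 and 32 cells), with exact 95% counting intervals. Lyz1, F13a1, Fcrls, Cd81 and Fn1 lie right of 0 in both libraries, Cd9, Lgals1 and Dcstamp lie left of 0 in both, and Mmp12 and Apoe lie on opposite sides. The rule itself bears on Ear2, Dcstamp, Mmp12, Clec4b1 and F13a1 in this split.

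Across single members several of the genes that were higher in cells with a Retnla UMI also went together with its amount. The correlation of log-normalized levels with Retnla was 0.61 over 83 Ctrl and 0.55 over 94 dKO members for F13a1, 0.45 and 0.54 for Lyz1, and 0.61 and 0.42 for Fcrls, the highest of 2979 genes by the smaller of the 2 values. Cd9 had correlations of -0.42 and -0.41 with Retnla. Mmp12 went with Cd36, a scavenger receptor for lipids (0.50 and 0.53), with the lysosomal tetraspanin Cd63 (0.62 and 0.41) and with Itgax (0.45 and 0.40). F13a1 had a correlation of -0.28 in each library with Mmp12. The cells of a library share 1 pool of free RNA and differ in depth, and these values are descriptions.

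Members with exactly 3 rule genes (27 Ctrl, 37 dKO) held more Apoe and less Fn1 than members with 4 to 6 (56 and 57). Apoe was at 4295 CPM with 3 and 1201 CPM with more in Ctrl, and at 5764 and 844 CPM in dKO, the first of which includes the cell with 1324 UMIs. Fn1 was at 694 and 2069 CPM in Ctrl and at 404 and 1557 CPM in dKO. Median depth was 10955 and 15316 UMIs in Ctrl and 10523 and 14019 UMIs in dKO, and the part of depth in these differences was not tested.

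In the Ctrl library 1.91% of the cells met the rule (1.53 to 2.37), and in the dKO library 2.82% did (2.29 to 3.44). The dKO share was higher by 0.909 points (0.227 to 1.63). Among gated cells they made up 6.25% (5.01 to 7.69) and 8.91% (7.26 to 10.8). With at least 4 rule genes required the shares were 1.29% and 1.71% and the interval of the difference reached below 0 (-0.124 to 1.00). With every cell thinned to 2000 UMIs, 19 Ctrl and 20 dKO cells met the rule and the difference was 0.173 points (-0.185 to 0.572). Ly6c2/Chil3 cells made up 4.64% and 7.15%, and Spp1/Gpnmb cells 5.44% and 3.81%. Genes of the rule themselves differed between the libraries, Mmp12 most, so the shares also carry those differences.

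Between the libraries, 178 of the 3031 genes (5.87%) were at least 1.5-fold higher in dKO members and 72 (2.38%) at least 1.5-fold lower, 8.25% in all, and the median gene had a log2 ratio of -0.00. The members were chosen on UMIs of the rule genes, so the ratios of these genes between the libraries depend on that choice and are descriptions. Of the rule genes only Mmp12 passed 1.5-fold, at 2223 CPM in Ctrl and 1420 CPM in dKO (ratio 0.639, 0.601 to 0.679), with 62 of 83 and 58 of 94 members holding a UMI. In the other gated cells its log2 ratio was -2.24. Retnla was 1.26-fold higher in dKO (1.19 to 1.32), Dcstamp 1.37-fold (1.17 to 1.61), and Ear2 had a ratio of 0.904 (0.775 to 1.05). Yy1 was at 138 CPM in Ctrl and 153 CPM in dKO members (ratio 1.11, 0.894 to 1.37).

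Interferon response genes stood well above the share of all genes, 12 of 14 measured being at least 1.5-fold higher in dKO and none lower by that much, with a median log2 ratio of 0.77. Irf7, the transcription factor that amplifies type I interferon production, had 67 UMIs in 24 of 83 Ctrl members and 272 UMIs in 68 of 94 dKO members, 3.86-fold by CPM (2.94 to 5.12). Ly6e, an antiviral surface protein, had 193 UMIs in 47 Ctrl members and 657 UMIs in 77 dKO members, 3.24-fold (2.75 to 3.82). Oasl2, of the oligoadenylate synthetase family, had 47 UMIs in 21 and 96 UMIs in 55 members. Ifi204, a DNA sensor with close copies, was at 86.9 and 185 CPM, Rsad2 (viperin) at 163 and 306 CPM, and Bst2 (tetherin) at 199 and 333 CPM. Isg15 (1.35-fold) and Gbp2 (1.07-fold) did not reach 1.5-fold.

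The difference was spread over many members. The median of the summed interferon list was 942 CPM over 83 Ctrl and 2320 CPM over 94 dKO members, and 75 dKO members (79.8%) lay above the Ctrl median. At 2000 UMIs per cell Irf7 was found in 10.8% of Ctrl (5.08 to 19.6) and 29.0% of dKO members (20.1 to 39.4). The summed ratio of the interferon list was 1.94 (1.84 to 2.06) in members and 2.61 (2.57 to 2.65) in the other gated cells. Over all UMIs, without thinning, Irf7 was found in 28.9% of Ctrl and 72.3% of dKO members. In stromal and endothelial cells, also without thinning, it was found in 23.6% and 50.4%. With at least 4 rule genes required the members' ratio was 1.59.

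Of 13 measured genes of inflammatory cytokines and their feedback regulators, 9 were at least 1.5-fold higher in dKO, against 5.87% of all genes. None was lower by 1.5-fold, against 2.38% of all genes, and the median log2 ratio was 0.96. Cxcl1, a neutrophil attractant, had 52 Ctrl and 367 dKO UMIs (6.71-fold, 5.01 to 9.15), of which 123 lay in 1 dKO cell. Without the highest cell of each library its log2 ratio was 2.40 in place of 2.75. Il1b (interleukin 1 beta) had 271 UMIs in 28 Ctrl and 922 UMIs in 41 dKO members (3.23-fold, 2.82 to 3.72), 171 of them in 1 dKO cell. Osm (oncostatin M) had 15 UMIs in 6 and 95 UMIs in 20 members, and Tnf 39 UMIs in 15 and 133 UMIs in 26. Nfkbia, the inhibitor of NF-kappa B that its own pathway induces, was at 390 and 773 CPM and was seen in 71 of 83 and 82 of 94 members. Cxcl2, the list's most abundant gene, was at 2161 and 2693 CPM (1.25-fold, 1.18 to 1.31). The summed list had a ratio of 1.59 (1.53 to 1.65) in members, and 56 of 94 dKO members (59.6%) lay above the Ctrl median of 2888 CPM. In the other gated cells the list was at 4597 CPM in Ctrl and 5980 CPM in dKO.

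Handling stress and immediate early genes, which respond to tissue dissociation, were higher too. Of 16 such genes 13 were at least 1.5-fold higher in dKO members and 0 lower, against 5.87% and 2.38% of all genes. The median log2 ratio was 0.84. Among the higher genes were Junb (552 and 957 CPM), Hsp90aa1 (1265 and 2325 CPM) and Dnajb1 (91.9 and 322 CPM). Hspa1b was at 1394 and 2603 CPM and Hspa1a at 1202 and 1848 CPM, which as close copies may share reads. The summed ratio was 1.71 (1.67 to 1.76) in members and 1.31 in the other gated cells. Hspb1, a small heat shock protein, had 96 UMIs in 41 of 83 Ctrl and 484 UMIs in 33 of 94 dKO members, 122 of the latter in 1 cell. Its log2 ratio in all other gated cells together was -0.03, but it was 1.53 in Fcna/Cd163 cells. In Ly6c2/Chil3 cells, Spp1/Gpnmb cells and the remainder it was -0.49, -0.94 and -0.48.

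Members at or under the Ctrl median of this list (42 Ctrl and 39 dKO cells) held it at 3644 and 3645 CPM, which follows from that limit. In them the interferon ratio was 2.16 and the inflammatory ratio 1.43, against 1.94 and 1.59 over all members, and the MHC class II and CC chemokine ratios were 0.962 and 1.08. The correlation of the list over single cells with the interferon list was 0.02 in Ctrl and 0.12 in dKO, and with the inflammatory list -0.09 in each. The part of handling stress as a cause of any of these differences was not tested.

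Of 8 measured CC chemokines, 4 were at least 1.5-fold higher in dKO and 1 at least 1.5-fold lower, against 5.87% and 2.38% of all genes. Ccl2, an attractant of monocytes, had 109 and 286 UMIs (2.49-fold, 1.99 to 3.14), Ccl3 97 and 222 UMIs, and Ccl7 46 and 103 UMIs. Of the latter 64 lay in 1 cell, and the log2 ratio of Ccl7, 1.09 over all members, was 0.40 without the highest cell of each library and -0.89 in members with at least 4 rule genes. Ccl5, which the study followed in MuSCs and whole muscle and not in these cells, had 84 UMIs in 10 Ctrl and 161 UMIs in 17 dKO members (1.82-fold, 1.39 to 2.40). The abundant Ccl6 and Ccl9 were 1.17-fold and 1.08-fold higher. Ccl22, a ligand of CCR4, had 114 and 46 UMIs, but 81 of the Ctrl UMIs lay in 1 cell, and its log2 ratio of -1.38 became -0.11 without the highest cell of each library. The summed list ratio was 1.17 (1.13 to 1.21) in members and 1.56 (1.54 to 1.58) in the other gated cells. Tgfb1 (transforming growth factor beta 1) had 325 and 324 UMIs.

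**Figure D4:**
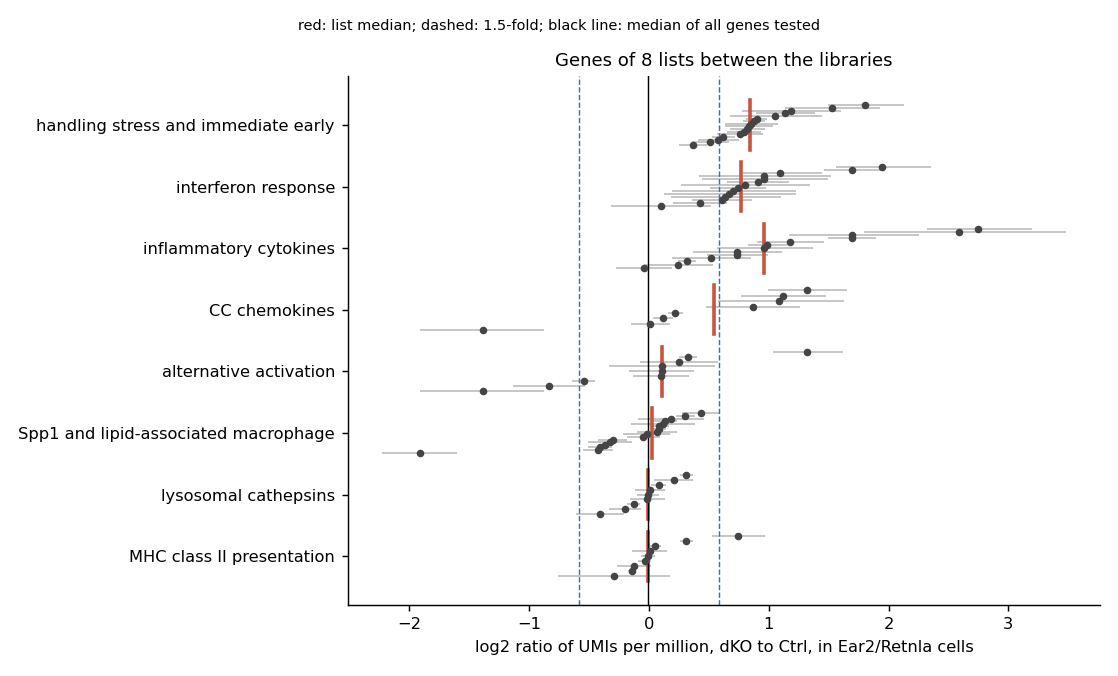
Each point is 1 gene with at least 100 UMIs, placed at its log2 ratio of CPM (dKO to Ctrl) in Ear2/Retnla cells with its exact 95% counting interval, in rows for 8 gene lists. Red bars mark list medians, dashed lines 1.5-fold and the solid line the median of all 3031 genes (-0.00), and the interferon (0.77), inflammatory (0.96) and handling stress (0.84) medians lie to the right while the MHC class II median (-0.01) lies at the line.

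**Figure D5:**
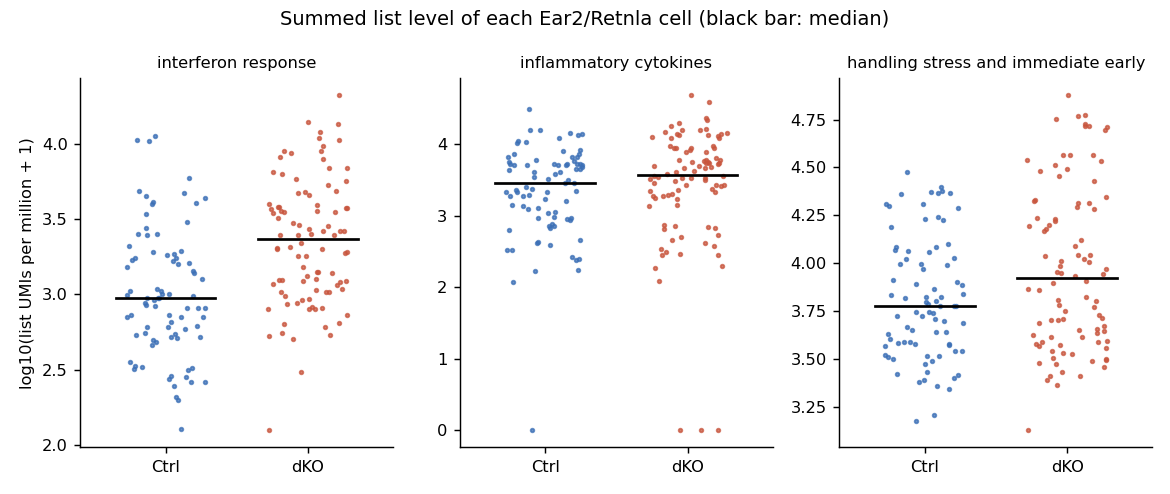
Each point is 1 Ear2/Retnla cell (83 Ctrl, 94 dKO) and its height is log10(summed CPM of the list + 1), with a black bar at the median. The interferon median is 942 CPM in Ctrl and 2320 CPM in dKO, the inflammatory median 2888 and 3688 CPM, and the clouds of the 2 libraries overlap in every panel.

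The antigen presentation program was nearly level between the libraries. MHC class II presentation genes had a median log2 ratio of -0.01 and a summed ratio of 0.994 (0.981 to 1.01) in members, against 1.21 (1.20 to 1.22) in the other gated cells. Cd83, a surface protein that stabilizes MHC class II, passed 1.5-fold (219 and 368 CPM), and the other 8 measured genes did not. H2-Aa had a ratio of 1.04 (1.00 to 1.07) and Cd74 of 0.908 (0.888 to 0.929).

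Of 9 measured alternative activation genes, 1 was at least 1.5-fold higher and 2 lower, where 5.87% and 2.38% of all genes were. The list had a median log2 ratio of 0.11 and a summed ratio of 1.03 (0.998 to 1.07). Klf4, a transcription factor that cooperates with STAT6, had 139 UMIs in 45 and 366 UMIs in 69 members (2.50-fold, 2.05 to 3.07). Mgl2 (CD301b), a galactose-binding lectin, had 249 UMIs in 47 and 147 UMIs in 37 members (ratio 0.561, 0.455 to 0.691). The other lower gene was Ccl22, whose difference rests on 1 Ctrl cell as given above. Fn1, at 1726 and 1184 CPM (ratio 0.686), was within 1.5-fold, as was Mrc1, the mannose receptor, at 242 and 259 CPM. Chil3 had 8 UMIs in Ctrl and 50 in dKO, 27 of them in 1 cell. Of 9 genes of GM-CSF, M-CSF, IL-4 and IL-13 signalling, only Socs3, a feedback inhibitor of cytokine receptors, passed 1.5-fold (45 and 133 UMIs).

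Of the 10 genes lowest in dKO members, Dcn, Mfge8 and Ccl22 were within 1.5-fold once the highest cell of each library was left out, and the other 7 were not. Mt3, a metallothionein, had 369 UMIs in 8 Ctrl and 7 UMIs in 2 dKO members, with 326 in 1 Ctrl cell, and its log2 ratio was -5.79 with and -5.50 without the highest cells. Of 209 Ctrl UMIs of Dcn (decorin, a matrix proteoglycan of fibro-adipogenic progenitors) 163 lay in 1 cell, and without the highest cells its log2 ratio was -0.29 in place of -2.32. Spp1 (osteopontin) had 397 and 111 UMIs, 188 of the Ctrl UMIs in 1 cell, and a log2 ratio of -1.25 without the highest cells. The rule set aside cells with at least 20 Spp1 UMIs when they also had Gpnmb, so the Spp1 level of the members depends on it. Sparc, Col1a2 and Col3a1, matrix genes of stromal cells like Dcn, had log2 ratios of -1.68, -1.05 and -1.04 in members. Without the highest cells these were -1.21, -0.74 and -0.85. In all other gated cells together they were 0.99, 0.95 and 0.44, but the classes differed. Fcna/Cd163 cells were lower in dKO like the members, at -1.42, -1.25 and -1.28. Ly6c2/Chil3 cells were at 0.60, 0.49 and -0.11, Spp1/Gpnmb cells at 2.30, 1.48 and -0.57, and the remainder at 0.68, 1.13 and 0.92. Mfge8, a bridge to dying cells, had 124 of its 168 Ctrl UMIs in 1 cell. Tspan13 (104 UMIs in 41 and 35 UMIs in 23 members) and Fuca2 (80 UMIs in 40 and 39 UMIs in 26) were spread over many cells, with top cells of 13 and 5 UMIs in Ctrl. Acp5, the tartrate-resistant acid phosphatase of osteoclasts and macrophages, was at 211 and 138 CPM (ratio 0.654, 0.536 to 0.798) in 46 and 46 members.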

How the data were processed

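Live mononuclear cells of 3 pooled mice per genotype were sorted after red cell lysis and made into 1 droplet (10x) library each. The authors deposited filtered UMI count matrices, made per the submitters' processing notes with Cell Ranger 7.0.0 on mm10 and Seurat 4.3.0, while the matrix header names version 3.0.2. The counts were used as deposited. The 24984 genes included 0 mitochondrial genes, so a mitochondrial filter could not act. Leaving out cells with under 500 genes gave 4335 and 3329 cells, the numbers the study gives after its own filters and doublet removal, so doublets may have been removed before deposit. None were removed here, except in an alternative that dropped the 7.5% of cells with the highest Scrublet scores, among them 2.41% of Ctrl and 8.51% of dKO members.

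The members and the 35 gene lists (366 genes, 3 not in the files) were chosen with earlier results of these data known. UMIs of a library's members were summed, divided by their total and compared as ratios. Genes needed 100 UMIs over both libraries, and 1.5-fold was the limit. With 1 library per group no test was made. Genes named were the rule and marker genes, the 4 most abundant of each list and those past 1.5-fold, the 10 highest and 10 lowest ratios, the 15 leading member genes, Yy1, Ccl5 and Tgfb1. Some genes that met these rules are not reported here. Others, such as Adgre1, Mertk, Chil3, Trem2, Cfb and the genes of the Retnla comparison, were chosen after their values were seen. Thinning drew 2000 UMIs per cell. Alternatives changed the rule, depth, doublets, scaling and limits. Python 3.11.15, numpy 2.4.6, scipy 1.17.1, pandas 2.3.3, scanpy 1.11.5 and matplotlib 3.10.9 were used, and the ratio script was tested on simulated data. Promoters came from RefSeq (GRCm38.p6).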

Additional observations from a re-analysis of the deposited data

How the results depend on the processing

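No paired analysis was possible because each group has 1 library. The share of cells that met the rule was higher in dKO under all 7 alternatives, by 0.173 points when thinned to 2000 UMIs and by 2.66 points over gated cells, but with 4 rule genes or thinning the interval reached below 0. Against 178 genes higher and 72 lower, 29 and 15 (of 484) passed when thinned, 91 and 37 (of 1572) in members at or under the Ctrl median of handling stress, 355 and 206 (of 4797) from 50 UMIs, 77 and 22 (of 1627) from 200 UMIs, and 42 and 11 at 2-fold, where fewer or more genes or a stricter limit applied. With at least 4 rule genes the summed ratios were 0.965 for MHC class II, 1.59 for interferon, 1.74 for inflammatory and 1.10 for CC chemokine genes. In members at or under the handling median they were 0.962, 2.16, 1.43 and 1.08. Without the most abundant gene they were 1.05 for MHC class II, 1.79 for interferon and 2.02 for inflammatory genes. Thinning gave 0.976 for MHC class II and 1.51 for inflammatory genes, the mean of single-cell CPM gave 1.49 and leaving out the top member 1.497 for inflammatory genes, and removing likely doublets gave 1.13 for CC chemokines. Log2 ratios turned for Ccl7 (-0.89), Cx3cr1 (-3.89), Fcgr4 (-0.10), Gdf15 (-0.074) and Ifit2 (-1.45) with 4 rule genes, and for Cx3cr1 (-2.08) without likely doublets. The causes were not tested. Values of named genes stayed within their counting interval for 84 of 141 genes with 4 rule genes and 76 of 139 when thinned, and for 121 to 141 of 141 under the other 4 alternatives. Against Cd209a/Flt3 cells in place of the other gated cells, 323 genes were 2-fold higher and 70 lower, but genes needed 100 UMIs in members, so genes of Cd209a/Flt3 cells such as Flt3 could not count as lower. The alternatives on handling stress, single top cells and these Cd209a/Flt3 cells were chosen after seeing the data. Depth limited genes under 100 UMIs, and cells pooled from 3 mice gave no spread between animals.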

Other observations

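Lysosomal cathepsins were level between the libraries, with 0 of 9 measured genes past 1.5-fold (8.25% of all genes were) and a summed ratio of 1.04 (1.02 to 1.06). Ctsb was at 4442 CPM in Ctrl and 4066 CPM in dKO members and Ctss at 3648 and 4536 CPM. Of 16 genes of the Spp1 and lipid-associated macrophage list, only Spp1, which the rule used to set cells aside, passed 1.5-fold, and the summed ratio was 0.919 (0.903 to 0.934). Trem2, a lipid receptor, was at 466 and 629 CPM, and Fabp5, a fatty acid binding protein, at 1311 and 1443 CPM. Of 11 C-type lectins, Clec4a1 (70 and 134 UMIs) and Clec4e (206 and 361 UMIs), a receptor for microbial glycolipids, were higher and Mgl2 was lower. Of all genes 5.87% were higher and 2.38% lower. Clec7a, the beta-glucan receptor dectin-1, was at 722 and 690 CPM.

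Among chemokine receptors, Ccr2, which brings monocytes out of the blood, was at 329 and 334 CPM. Cxcr4 had 95 UMIs in 35 and 164 UMIs in 53 members, and Ccrl2 262 UMIs in 44 and 449 UMIs in 67. Cx3cr1 had 103 UMIs in 17 Ctrl and 194 UMIs in 8 dKO members, 86 of the latter in 1 cell, and its log2 ratio of 0.84 turned to -3.89 in members with at least 4 rule genes and to -2.08 without likely doublets. Cfb (complement factor B) had 10 UMIs in 8 Ctrl and 59 UMIs in 30 dKO members, under the minimum for the counts above. Cell cycle genes, used by the gate, had 258 and 191 UMIs in all.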
